A study of Mus musculus with 24 samples.

Results

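The genes examined here are 7 enzymes of cholesterol synthesis and 1 regulator of the pathway: Hmgcs1, Idi1, Fdps, Fdft1, Sqle, Lss, Cyp51 and Insig1. They were taken from a list of sterol pathway genes by symbol, and all 8 were matched by Ensembl identifier among the 54446 gene identifiers counted in each library. The list holds no gene of cholesterol uptake, so the group is called the sterol synthesis genes and Insig1 below. CD11b+ myeloid cells were taken from MC38 tumours, a mouse colon carcinoma line grown under the skin of C57BL/6J mice, although the growth notes in the labels speak of tumours or blood. WT mice were Ythdf2 fl/fl, and cKO mice were Lyz-Cre; Ythdf2 fl/fl, in which Cre is made from the Lyz2 locus in myeloid cells, so both genotypes carried the floxed Ythdf2 alleles. The methods give the age of the mice as 8 to 10 weeks. Tumours received 20 Gy once and were collected 3 days later (IR) or were left unirradiated (Ctrl). Polyadenylated RNA gave Input libraries and m6A IP libraries, the latter made from RNA pulled down with an N6-methyladenosine antibody, 24 libraries in all in 8 groups of 3 replicates. The methods describe replicates that each pooled several mice, for irradiated Ythdf2 fl/fl mice. They name them technical there and biological elsewhere, so the errors and p-values below measure the spread between libraries.

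Cells make cholesterol from acetyl-CoA through the mevalonate pathway. Hmgcs1 (cytosolic HMG-CoA synthase) acts early, Idi1 isomerizes isopentenyl diphosphate, Fdps makes farnesyl diphosphate, and Fdft1 joins farnesyl units into squalene. Sqle oxidizes squalene, Lss closes it into the first sterol ring system, and Cyp51 demethylates lanosterol. SREBP transcription factors switch these genes on when sterols are scarce, and Insig1, itself an SREBP target, holds the SREBP escort protein SCAP in the endoplasmic reticulum when sterols are plentiful. YTHDF2 binds m6A-modified mRNA and promotes its decay.

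The total gene count per library was 65180075 to 83661576 in the Inputs and 68846321 to 86421888 in the IP libraries. The myeloid label was met by Itgam, which encodes CD11b, at 335 to 407 CPM (counts scaled to a common library size) in the Inputs. The 4 B cell markers summed to 0.372 to 1.15 CPM in the Inputs, and the 7 T and NK cell markers to 1.41 to 2.82 CPM. The targeted gene went against its label: Ythdf2 stood at 95.7 to 104 CPM in the Inputs labelled WT and at 175 to 234 CPM in those labelled cKO, counted over the whole gene including parts outside the deletion. Lyz2, the locus that carries Cre, stood at 19670 to 20890 CPM in the WT Inputs and at 298 to 420 CPM in the cKO Inputs. In the irradiated IP libraries this order was the opposite, with 95.3 to 98.3 CPM in those labelled WT and 20640 to 20920 CPM in those labelled cKO. Values that set an irradiated IP group against its Input are therefore given by label, and a contrast averaged over both genotypes, which does not depend on that assignment, is given beside them.

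Of the 8 genes, 5 had an entry in the RefSeq promoter table of GRCm38.p6 (Cyp51, Insig1, Lss, Idi1 and Hmgcs1). The 250 bases before the start in that table were searched on both strands for TCACNCCAC, the letters of a classical sterol regulatory element. CCAAT, the box bound by NF-Y, was searched in the same way. Measured against the GENCODE gene starts used elsewhere here, the windows of Cyp51, Insig1, Lss and Idi1 run into the gene. That of Hmgcs1 ends before it. The CCAAT matches of Idi1 and Cyp51 lie past the GENCODE start. Hmgcs1 was the single one of these 5 members with the sterol letters, which 1.05% of all 32851 promoters held. CCAAT was found 3 times in Hmgcs1, 2 times in Idi1 and 1 time each in Cyp51, Insig1 and Lss, and 33.8% of all promoters held it. The promoters of Hmgcs1 (chr13:119690101-119690350, + strand) and Lss (chr10:76531355-76531604, + strand) are shown because they bracket this range, from 4 matches to 1 match, with the matching letters in capitals (ATTGG is CCAAT read on the other strand). A match describes letters and not a bound site.
Hmgcs1 promoter: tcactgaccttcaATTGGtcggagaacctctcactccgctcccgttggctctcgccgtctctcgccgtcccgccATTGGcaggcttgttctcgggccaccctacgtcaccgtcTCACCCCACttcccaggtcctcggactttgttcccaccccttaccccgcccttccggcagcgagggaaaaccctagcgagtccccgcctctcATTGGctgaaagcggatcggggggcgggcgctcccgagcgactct
Lss promoter: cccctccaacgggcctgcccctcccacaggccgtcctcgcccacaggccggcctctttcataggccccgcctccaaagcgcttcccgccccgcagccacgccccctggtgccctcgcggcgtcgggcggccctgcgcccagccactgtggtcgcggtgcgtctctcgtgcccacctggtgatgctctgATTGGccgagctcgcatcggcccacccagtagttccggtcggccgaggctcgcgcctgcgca

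Transcript levels differed widely between the members. In reads per kilobase of merged exon, scaled to library size (RPKM), the unirradiated WT Input level was highest for Hmgcs1 at 19.6 ± 0.872 (SD, n = 3). It was followed by Idi1 at 15.2 ± 0.740, Cyp51 at 14.0 ± 0.465, Fdft1 at 12.8 ± 0.447, Insig1 at 11.4 ± 0.0227 and Sqle at 8.34 ± 0.389 RPKM. Lss was lower at 1.53 ± 0.0712 RPKM, and Fdps was lowest at 0.441 ± 0.0337 RPKM. No neighbours in this order overlapped in their 3 libraries, the closest being Idi1, with a lowest level of 14.5 RPKM, and Cyp51, with a highest level of 14.3 RPKM. Dividing by the longest transcript in place of the merged exons kept the order and put Hmgcs1 at 26.04 RPKM and Fdps at 0.629 RPKM. The Fdps level is uncertain, and so is every other value below that rests on Fdps counts. The gene Gm43738 covers 7512 bases of the Fdps locus on the same strand and shares 1124 of the 4208 Fdps exon bases. The Fdps transcript used here for positions has 1382 bases. Gm43738 itself had 0 counts in every library, Fdps had 53 to 154 counts in the Inputs, and reads from the shared bases cannot be assigned to either gene. Fdft1 overlaps Ctsb, a cathepsin gene at 5177 to 6112 CPM in the Inputs, by 774 bases on the opposite strand. The authors' alignment used strand, but the methods do not state whether the counting did. Whether Ctsb reads entered the Fdft1 counts was not tested.

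Irradiation of the tumours lowered most of the sterol synthesis genes in the Inputs of both genotypes and raised Idi1. In WT, 5 of the 8 genes were lower and 1 was higher, against 17.0% of the 16090 genes tested being lower and 14.7% being higher. In cKO, 5 were lower and 1 was higher, against 23.8% lower and 21.8% higher among all genes. The median log2 change of the 8 genes was -0.21 in WT and -0.34 in cKO, whereas over all genes it was 0.0057 and 0.010. Fdft1, Sqle, Lss and Cyp51, which act in sequence from squalene formation to lanosterol demethylation, fell in both genotypes. Fdps in WT (0.547 times the unirradiated level) had the largest change in counts, and the others lay between 0.663 and 1.504 times that level. The Fdps change carries the uncertainty of its counts given above. These are bulk samples, in which fewer cells of a type and less RNA per cell cannot be told apart.

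**Figure D1:**
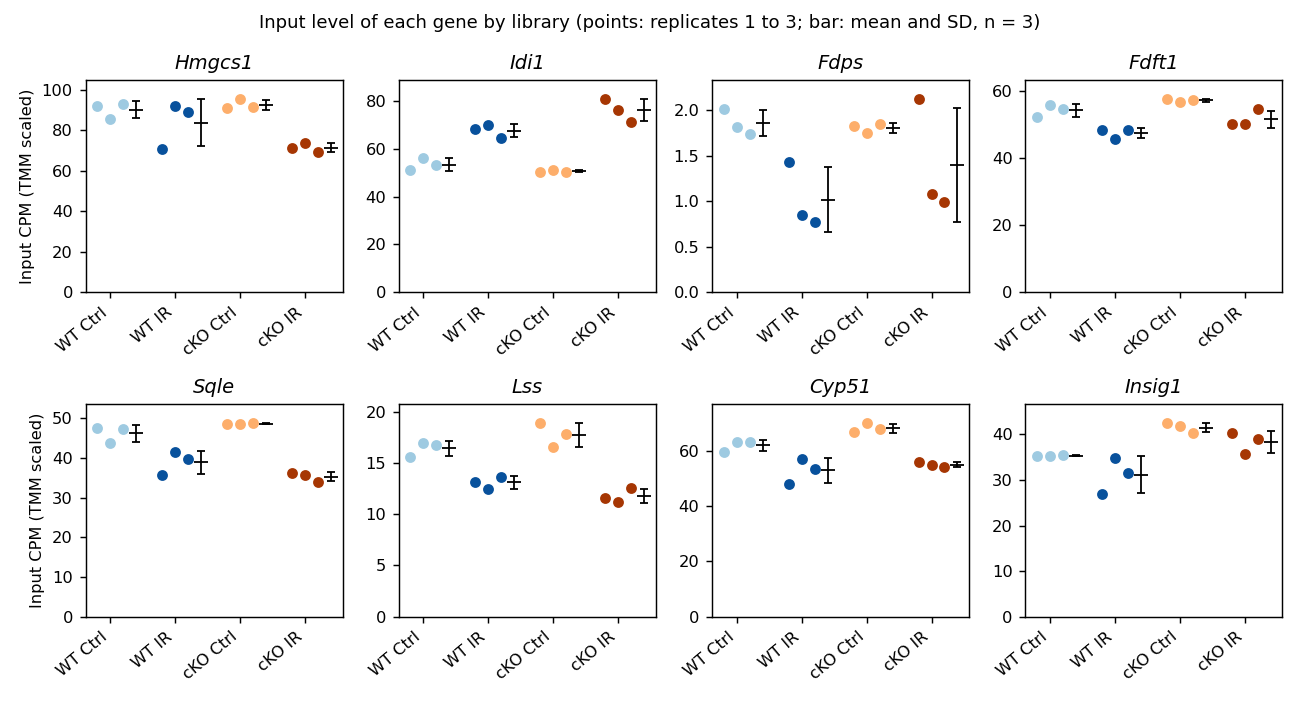
Input level of each gene in every library (y axis, TMM-scaled CPM from 0; x axis, group by label). Points are replicates 1 to 3, and the bar beside them is the mean with its SD (n = 3). Idi1 is the gene whose irradiated libraries lie above the unirradiated ones in both genotypes, and WT IR replicate 1 lies below the other WT IR libraries for Hmgcs1, Sqle, Cyp51 and Insig1.

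Idi1 (ENSMUSG00000058258.14, chr13:8885501-8892451, + strand), the isomerase, stood at 50.9, 56.0 and 53.0 CPM in WT Ctrl and at 68.1, 70.0 and 64.5 CPM in WT IR. In cKO it stood at 50.4, 51.1 and 50.3 CPM in Ctrl and at 80.7, 76.3 and 71.3 CPM in IR. All 6 irradiated Inputs were above all 6 unirradiated ones. The log2 change was 0.34 ± 0.049 in WT (SE, edgeR adjusted p = 1.5e-05) and 0.59 ± 0.049 in cKO (edgeR adjusted p = 5.4e-09), a rise of 26.7% and 50.4%. Leaving out any 1 of the Inputs compared left the change between 0.31 and 0.38 in WT and between 0.54 and 0.63 in cKO.

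Lss (ENSMUSG00000033105.12, chr10:76531588-76557138, + strand), lanosterol synthase, stood at 15.6, 17.0 and 16.8 CPM in WT Ctrl against 13.2, 12.5 and 13.7 CPM in WT IR. In cKO it went from 18.9, 16.6 and 17.8 CPM to 11.6, 11.2 and 12.6 CPM. The groups did not overlap in either genotype, and Lss had the largest fall of the members in cKO, at -0.59 ± 0.070 on the log2 scale (edgeR adjusted p = 6.3e-07) against -0.33 ± 0.070 in WT (edgeR adjusted p = 0.0011). Sqle (ENSMUSG00000022351.14, chr15:59315077-59331192, + strand), squalene epoxidase, stood at 47.6, 43.7 and 47.4 CPM in WT Ctrl and at 35.8, 41.5 and 39.7 CPM in WT IR. In cKO its levels were 48.7, 48.5 and 48.8 CPM before and 36.2, 35.7 and 34.1 CPM after irradiation. Again the groups did not overlap, and the log2 change was -0.25 ± 0.053 in WT (edgeR adjusted p = 0.0012) and -0.46 ± 0.053 in cKO (edgeR adjusted p = 4.5e-07).

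Cyp51 (ENSMUSG00000001467.5, chr5:4081145-4104746, - strand), the demethylase, stood at 59.5, 63.0 and 63.1 CPM in WT Ctrl and at 48.0, 57.0 and 53.5 CPM in WT IR. In cKO it stood at 66.6, 69.8 and 67.9 CPM and, after irradiation, at 55.7, 54.9 and 54.1 CPM. The groups did not overlap, with a log2 change of -0.23 ± 0.051 in WT (edgeR adjusted p = 0.0017) and -0.31 ± 0.051 in cKO (edgeR adjusted p = 3.8e-05). Fdft1 (ENSMUSG00000021273.10, chr14:63145150-63179578, - strand), squalene synthase, stood at 52.3, 56.0 and 54.6 CPM in WT Ctrl against 48.3, 45.7 and 48.6 CPM in WT IR, and at 57.7, 56.7 and 57.4 CPM in cKO Ctrl against 50.1, 50.3 and 54.6 CPM in cKO IR. Its groups did not overlap either, and it fell by 0.19 ± 0.045 in WT (log2, edgeR adjusted p = 0.0024) and by 0.15 ± 0.045 in cKO (edgeR adjusted p = 0.010). The cKO call for Fdft1 was lost without cKO IR replicate 1 (-0.13, edgeR adjusted p = 0.053) or without cKO IR replicate 2 (-0.13, edgeR adjusted p = 0.054).

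The remaining members were less uniform between the genotypes. Hmgcs1 (ENSMUSG00000093930.2, chr13:119690379-119708260, + strand) stood at 92.1, 85.6 and 92.9 CPM in WT Ctrl and at 70.6, 92.0 and 88.8 CPM in WT IR, which overlap. In cKO it went from 91.0, 95.4 and 91.3 CPM to 71.1, 73.9 and 69.4 CPM, with no overlap. The log2 change was -0.11 ± 0.067 in WT (edgeR adjusted p = 0.25) and -0.37 ± 0.067 in cKO (edgeR adjusted p = 1.0e-04). Without WT IR replicate 1 the WT value was 0.0036 (edgeR adjusted p = 0.96), and without WT IR replicate 2 it was -0.18 (edgeR adjusted p = 0.033), so 1 library decides it.

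Insig1 (ENSMUSG00000045294.11, chr5:28071363-28078662, + strand) stood at 35.3, 35.4 and 35.4 CPM in WT Ctrl and at 26.9, 34.9 and 31.6 CPM in WT IR. In cKO it stood at 42.4, 41.8 and 40.3 CPM in Ctrl and at 40.4, 35.7 and 39.0 CPM in IR, which overlap. Its log2 change missed the threshold in both genotypes, at -0.18 ± 0.069 in WT (edgeR adjusted p = 0.050, just above 0.05) and -0.11 ± 0.068 in cKO (edgeR adjusted p = 0.19). Without WT IR replicate 2 the WT change was -0.27 (edgeR adjusted p = 0.0016), and without WT IR replicate 1 it was -0.088 (edgeR adjusted p = 0.22), so single libraries decide it. It was also called lower in WT by DESeq2 (-0.18, adjusted p = 0.039) and by edgeR without a count filter (-0.19, adjusted p = 0.0056), and in cKO with only the 6 libraries compared (-0.11, edgeR adjusted p = 0.044). Fdps (ENSMUSG00000059743.12, chr3:89093588-89101959, - strand) had 145, 139 and 130 counts in WT Ctrl and 92, 56 and 53 counts in WT IR, a log2 change of -0.87 ± 0.26 (edgeR adjusted p = 0.016). In cKO it had 131, 147 and 140 counts in Ctrl and 154, 77 and 66 counts in IR, with a log2 change of -0.36 ± 0.26 (edgeR adjusted p = 0.27). Replicate 1 was the highest Fdps library of both irradiated groups. Without cKO IR replicate 1 the cKO change was -0.80 (edgeR adjusted p = 0.013), and without cKO IR replicate 3 it was -0.17 (edgeR adjusted p = 0.66). The WT call was lost without WT Ctrl replicate 1, WT IR replicate 2 or WT IR replicate 3, with changes of -0.81, -0.75 and -0.71.

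**Figure D2:**
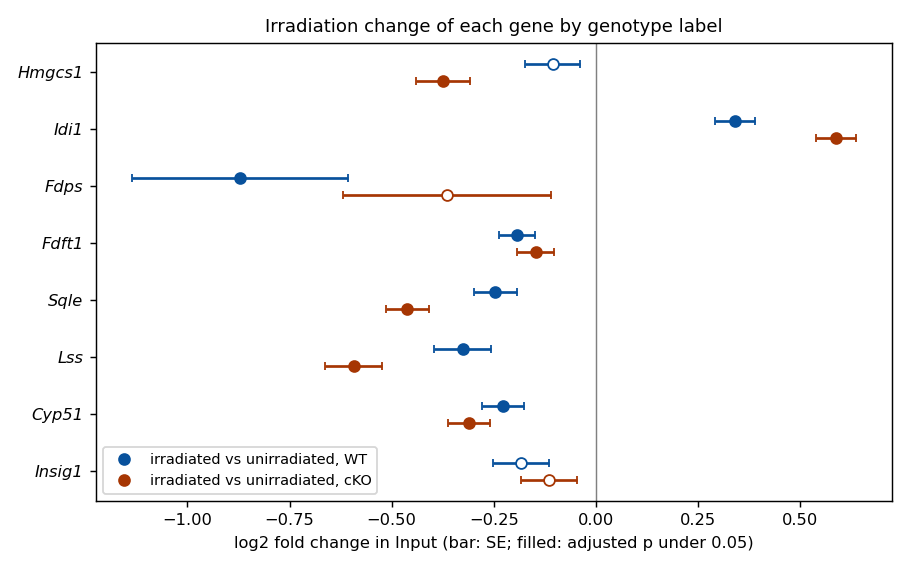
Log2 fold change in Input after irradiation (x axis) for each gene (y axis) in WT (blue) and cKO (brown). Bars are SE, and filled points have an edgeR adjusted p under 0.05. Idi1 alone lies to the right of 0 in both genotypes, and the other 7 genes lie to the left.

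The response to irradiation differed between the genotype labels for 4 of the 8 genes, in a test of the difference itself (the irradiation change in cKO minus that in WT). This difference was negative for 3 genes and positive for 1, against 15.2% negative and 15.0% positive among all genes. For Idi1 it was 0.25 ± 0.069 on the log2 scale (edgeR adjusted p = 0.0098), the rise being larger in cKO, and it passed the threshold in all 12 fits that each left out 1 Input. Sqle (-0.22 ± 0.075, edgeR adjusted p = 0.035), Lss (-0.27 ± 0.099, edgeR adjusted p = 0.047) and Hmgcs1 (-0.27 ± 0.094, edgeR adjusted p = 0.037) fell further in cKO. These 3 differences lay close to the threshold. Leaving out 1 Input lost the call in 8 of the 12 fits for Sqle, in 7 for Lss and in 9 for Hmgcs1, with the log2 difference staying between -0.38 and -0.17. For Fdft1, Cyp51, Insig1 and Fdps the difference did not pass the threshold, at 0.045 ± 0.064, -0.083 ± 0.072, 0.069 ± 0.097 and 0.51 ± 0.37. Without WT IR replicate 1 the Cyp51 difference was -0.15 and was called (edgeR adjusted p = 0.044), and that of Fdps ran from 0.072 without cKO IR replicate 1 to 0.83 without WT IR replicate 1, with no call.

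Between the unirradiated groups labelled cKO and WT, 1 member was called higher and 0 lower, against 8.05% and 7.61% of all genes. Insig1 was higher in cKO, with all 3 cKO Ctrl Inputs (40.3 to 42.4 CPM) above all 3 WT Ctrl Inputs (35.3 to 35.4 CPM) and a log2 difference of 0.23 ± 0.068 (edgeR adjusted p = 0.025). The call was lost when any 1 of 5 of the 6 Inputs was left out, with adjusted p-values of 0.068 to 0.092, the exception being cKO Ctrl replicate 3, and the size stayed between 0.22 and 0.25. The log2 differences of the other 7 genes ran from -0.075 (Idi1) to 0.14 (Cyp51) and did not pass the threshold. For Cyp51, Fdft1 and Sqle every cKO Ctrl Input lay above every WT Ctrl Input, without a call (edgeR adjusted p = 0.072, 0.30 and 0.41). The share of all genes with such separate levels was not counted, so this is a description only. Direction between the genotypes rests on the labels, which Lyz2 fits and Ythdf2 counts do not.

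Between the irradiated groups, 3 members had higher levels in those labelled cKO and 2 had lower levels, against 23.9% and 23.8% of all genes. Insig1 was higher by 0.30 ± 0.069 on the log2 scale (edgeR adjusted p = 0.0012), Idi1 by 0.17 ± 0.049 (edgeR adjusted p = 0.0063) and Fdft1 by 0.12 ± 0.045 (edgeR adjusted p = 0.033), none of them with overlapping groups. Hmgcs1 was lower by -0.23 ± 0.067 (edgeR adjusted p = 0.0077) and Sqle by -0.14 ± 0.054 (edgeR adjusted p = 0.036), both with overlapping groups. Insig1 kept its call whichever Input was left out. Idi1 lost it without cKO IR replicate 1 (0.13, edgeR adjusted p = 0.053) and Hmgcs1 without WT IR replicate 3 (-0.19, edgeR adjusted p = 0.050). Fdft1 lost it without WT IR replicate 2 or cKO IR replicate 3 (0.092 and 0.080), and Sqle without WT IR replicate 2 or 3 or cKO IR replicate 2 or 3 (-0.15 to -0.096). Leaving out WT IR replicate 1 turned the uncalled Cyp51 difference from 0.055 to -0.010. The Fdps difference was 0.47 ± 0.27 (edgeR adjusted p = 0.17), and single libraries moved it from 0.031 without cKO IR replicate 1 (edgeR adjusted p = 0.94) to 0.79 without WT IR replicate 1 (edgeR adjusted p = 0.017).

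The rest of the synthesis pathway was read from a list of 14 further enzymes, all of them tested. After irradiation 8 fell and 0 rose in WT, against 17.0% and 14.7% of all genes, and 7 fell and 1 rose in cKO, against 23.8% and 21.8%. The median log2 change was -0.24 in WT and -0.16 in cKO. Lbr, a sterol reductase that is also a protein of the inner nuclear membrane, fell most, by 1.46 ± 0.064 in WT and by 0.99 ± 0.063 in cKO on the log2 scale. Acat2, the thiolase at the start of the pathway, fell by 0.62 ± 0.14 in WT, and Dhcr7, the last reductase, fell by 0.52 ± 0.085 in cKO. The 1 enzyme that rose in cKO was Pmvk, phosphomevalonate kinase, at 0.28 ± 0.063, which was named after its values were seen. Each of these changes passed the threshold (edgeR adjusted p of 0.0016 or less).

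Of 10 genes that control SREBP, 2 fell and 0 rose in WT, and 3 fell and 3 rose in cKO. The shares that fell are near those of all genes (17.0% in WT and 23.8% in cKO), and the list medians were -0.031 and 0.010. Of all genes, 14.7% rose in WT and 21.8% in cKO. Srebf2, the SREBP gene most tied to cholesterol synthesis, fell by 0.37 ± 0.034 in WT (edgeR adjusted p = 2.9e-08) and by 0.60 ± 0.034 in cKO (edgeR adjusted p = 2.2e-11). Srebf1, more tied to fatty acid synthesis, fell by 0.28 ± 0.052 and 0.63 ± 0.052 (log2, edgeR adjusted p = 0.00025 and 4.5e-09). Insig2, the relative of Insig1, rose by 0.33 ± 0.082 in cKO (edgeR adjusted p = 0.0021). Of 12 genes of uptake and trafficking, 11 could be tested. In WT 4 of these fell and 5 rose, against 17.0% and 14.7% of all genes. In cKO 6 fell and 4 rose, against 23.8% and 21.8%. These are larger shares than among all genes in either direction. Scarb1, a lipoprotein receptor, fell by 0.43 ± 0.047 in WT (edgeR adjusted p = 4.1e-07) and by 0.49 ± 0.047 in cKO (edgeR adjusted p = 3.4e-08).

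Markers of myeloid cells, of other cells and of the cell cycle moved with irradiation in the same Inputs. The summed level of the 12 cell cycle genes was 836 to 855 CPM in WT Ctrl and 404 to 408 CPM in WT IR, and 756 to 769 CPM in cKO Ctrl and 439 to 442 CPM in cKO IR. The 8 neutrophil markers summed to 2596 to 2722 CPM in WT Ctrl and to 662 to 705 CPM in WT IR, and to 1157 to 1187 CPM in cKO Ctrl and 572 to 576 CPM in cKO IR. All 12 cell cycle genes and all 8 neutrophil markers fell in WT, and 10 and 7 of them fell in cKO. The 8 macrophage markers summed to 2339 to 2380 CPM in WT Ctrl against 2075 to 2145 CPM in WT IR, and to 2822 to 2841 CPM in cKO Ctrl against 2554 to 2617 CPM in cKO IR, with 5 of them called lower in WT and 7 in cKO. The 12 general myeloid markers summed to 6131 to 6208 CPM in WT Ctrl against 4158 to 4201 CPM in WT IR. In cKO they summed to 6126 to 6201 CPM in Ctrl against 4558 to 4666 CPM in IR. Of them, 11 were called lower in either genotype. This list shares S100a8, S100a9, Ly6g, Adgre1, C1qa and C1qb with the neutrophil and macrophage lists, so its sum is not separate from theirs. Itgam, also in it, stood at 379 to 391 CPM in WT Ctrl and 395 to 407 CPM in WT IR. In cKO, Itgam stood at 394 to 407 CPM in Ctrl and 335 to 347 CPM in IR. The cell cycle, neutrophil, macrophage and general myeloid sums were thus lower in every irradiated Input than in every unirradiated Input of the same genotype. The dendritic sum (6 markers) rose instead, being 44.96 to 46.75 CPM in WT Ctrl and 68.3 to 71.02 CPM in WT IR. In cKO it was 41.98 to 42.89 CPM in Ctrl and 58.02 to 59.99 CPM in IR. The dendritic markers did not rise together. Of them, 3 (Xcr1, Cd209a and Siglech) stood at 0 in WT IR against 0 such markers in WT Ctrl, and Xcr1 stood at 0 in cKO Ctrl. The 5 endothelial markers summed to 179.8 to 181.1 CPM in WT Ctrl and 178.7 to 185.3 CPM in WT IR, which overlap. In cKO they summed to 151.4 to 154.1 CPM in Ctrl and 113.9 to 122.4 CPM in IR. The 6 erythroid markers summed to 27.4 to 29.9 CPM in WT IR and to at most 0.0669 CPM in each of the other Input groups. The 8 epithelial markers, which tumour cells could bring, summed to at most 8.13 CPM in any Input, with Krt19 at 0 in each group. The part of these shifts in the changes of the sterol genes was not tested.

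Across the 12 Inputs all pairs of members other than Idi1 had a positive correlation, which was weak in some pairs. This is a description of libraries that share their groups. Pearson's r of their log2 CPM ran from 0.17 to 0.91 over the 21 pairs without Idi1 (median 0.60), and from -0.96 to -0.29 over the 7 pairs with Idi1 (median -0.79). Cyp51 lay closest to the mean standardized level of all 8 genes (r = 0.97) and Idi1 was opposed to it (r = -0.83). Each member is itself part of that mean. Of the genes tested outside the group, Ccr2 (a chemokine receptor of monocytes), Tifab, Dpy19l1, Ikzf1 (a lymphoid and myeloid transcription factor) and Ly9 were most like that mean level, with r of 0.99, 0.98, 0.98, 0.97 and 0.97 over the 12 Inputs.

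The antibody enriched 6 of the 8 transcripts. With the IP libraries set against the Inputs in one fit of all 24 libraries, 6 members were higher in IP and 1 was lower in WT Ctrl, against 38.1% and 37.5% of the 17373 genes tested there. In cKO Ctrl the counts were again 6 and 1, against 37.8% and 36.0% of all genes. Cyp51 and Fdps had the highest IP over Input values in WT Ctrl, at 1.12 ± 0.041 and 1.13 ± 0.19 on the log2 scale, that of Fdps resting on its uncertain counts. Lss followed at 0.96 ± 0.058, Sqle at 0.88 ± 0.042, Fdft1 at 0.81 ± 0.039 and Insig1 at 0.21 ± 0.063, each with an edgeR adjusted p of 0.0029 or less. Idi1 was neither enriched nor depleted beyond the error (0.0035 ± 0.045, edgeR adjusted p = 0.95), and Hmgcs1 was depleted (-0.48 ± 0.056, edgeR adjusted p = 2.1e-09). In the 14 other synthesis enzymes 11 were higher in IP and 2 lower in WT Ctrl, with a median of 0.78, whereas the median of the 8 members was 0.85.

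Between the unirradiated genotypes, IP over Input was higher in cKO for 2 members and lower for 0, against 10.1% and 12.5% of all genes. Fdft1 had a log2 value of 1.004 ± 0.039 in cKO and 0.81 ± 0.039 in WT, a difference of 0.20 ± 0.055 (edgeR adjusted p = 0.0077). It passed the threshold in all 12 fits that left out 1 library. Hmgcs1 was less depleted in cKO (-0.24 ± 0.056) than in WT (-0.48 ± 0.056), a difference of 0.24 ± 0.079 (edgeR adjusted p = 0.022) that missed the threshold in 6 of those 12 fits, with adjusted p-values up to 0.074. The other 6 differences ran from -0.089 (Idi1) to 0.080 (Lss).

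Irradiation changed the antibody enrichment of Idi1 more than that of any other member. In the irradiated groups by label, Idi1 was depleted in IP, at -0.86 ± 0.045 in WT IR (edgeR adjusted p = 5.5e-18) and -0.77 ± 0.045 in cKO IR (edgeR adjusted p = 7.3e-17). Averaged over the genotypes, its IP over Input fell by 0.77 ± 0.045 on the log2 scale (edgeR adjusted p = 5.1e-16), and the fall stayed between 0.75 and 0.79 in the 24 fits that left out 1 library. The IP level itself, scaled over all 24 libraries, was 58.4, 59.4 and 55.2 CPM in WT Ctrl and 52.6, 51.6 and 51.3 CPM in cKO Ctrl. It was 39.5, 40.2 and 40.3 CPM in the IP libraries labelled WT IR and 49.8, 47.2 and 47.1 CPM in those labelled cKO IR. All 6 irradiated IP libraries were thus below all 6 unirradiated ones, while the Inputs moved the other way.

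In the same averaged contrast, 4 members gained IP over Input and 1 lost it, against 25.3% and 23.1% of all genes. Lss gained 0.35 ± 0.058, Sqle 0.21 ± 0.042, Cyp51 0.19 ± 0.041 and Hmgcs1 0.17 ± 0.056, each with an edgeR adjusted p of 0.011 or less and with the call kept in all 24 fits. In the IP libraries by label, 6 members were enriched and 2 depleted in WT IR (37.0% and 36.5% of all genes), and 5 were enriched and 1 depleted in cKO IR (36.9% for either direction). Cyp51 reached 1.32 ± 0.041 and 1.36 ± 0.041 and Lss 1.31 ± 0.059 and 1.40 ± 0.060 in WT IR and cKO IR. Fdps, Insig1 and Fdft1 stood apart between these labels, at 1.70 ± 0.21, 0.44 ± 0.064 and 1.11 ± 0.040 in WT IR and at 0.91 ± 0.20, 0.015 ± 0.063 and 0.82 ± 0.039 in cKO IR, where the labels of the IP libraries and of the Inputs cannot be assumed to match.

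**Figure D3:**
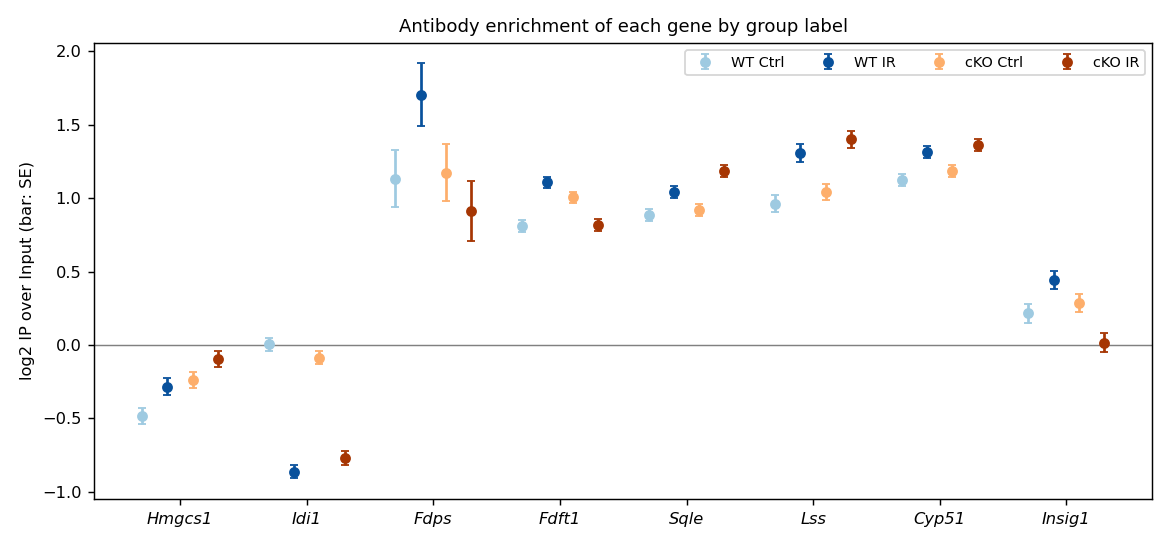
Log2 IP over Input from the fit of 24 libraries (y axis) for each gene (x axis) in the 4 groups by label, with bars for the SE. Idi1 lies near 0 in the unirradiated groups and at -0.86 and -0.77 in the irradiated ones, and the other genes move less.

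The deposited peak lists placed the enrichment within the transcripts. A consensus peak was one that the 3 IP libraries of a labelled group shared by 1 bp or more on one strand. Such peaks lay over 7 members in WT Ctrl, where 29.6% of the tested genes carried one, and over 6 members in WT IR, where 25.0% did. In cKO Ctrl they lay over 8 members and in cKO IR over 5, against 27.6% and 22.3%. Joined across groups they formed 30 places: 6 in Sqle, 6 in Fdft1, 7 in Cyp51, 4 in Fdps, 3 in Lss, 2 in Insig1 and 1 each in Idi1 and Hmgcs1. Of these, 11 had a consensus peak in all 4 groups, and the share of such places over all genes was not counted. The highest point of the peak lay in coding sequence at 14 of the 30 places, in the 3' UTR at 4, in the 5' UTR at 2, in an exon of another transcript at 2, and just outside an exon at 8, where the peak still overlapped the exon. Insig1 carried its 2 peaks in the 3' UTR, 338 and 1431 bases after the stop codon.

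Windows of 101 bases around the highest point were searched on the transcript strand for the core of the m6A consensus, spelled as GGAC or AGAC, or with the second purine changed as GAAC or AAAC. At least 1 of them was found in 26 of the 30 windows, against 83.7% of the windows of all 12594 WT Ctrl consensus peaks, and GGAC in 10 of the 30 against 35.1%. GGACT was found in 3 of the 30 against 11.5%, so these shares were close to those of all peaks. The following 5 windows (GRCm38) lie in coding sequence or run from an intron into it, are written in transcript direction, and have the 4 searched words in capitals. Idi1 is shown for its loss after irradiation, Cyp51 peak 1 for the highest fold, Cyp51 peak 4 as a peak of all 12 libraries, Fdft1 peak 3 as a strong peak called in 7 of the 12 libraries, and Hmgcs1 as the weakest.
Idi1 peak, chr13:8890313-8890413, + strand: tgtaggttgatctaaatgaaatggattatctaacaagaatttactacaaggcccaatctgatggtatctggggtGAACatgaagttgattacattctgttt
Cyp51 peak 1, chr5:4101300-4101400, - strand: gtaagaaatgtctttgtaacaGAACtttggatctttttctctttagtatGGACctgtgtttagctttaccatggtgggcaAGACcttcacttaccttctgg
Cyp51 peak 4, chr5:4091990-4092090, - strand: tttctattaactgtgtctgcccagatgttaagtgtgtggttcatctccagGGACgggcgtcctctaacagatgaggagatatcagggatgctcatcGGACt
Fdft1 peak 3, chr14:63156650-63156750, - strand: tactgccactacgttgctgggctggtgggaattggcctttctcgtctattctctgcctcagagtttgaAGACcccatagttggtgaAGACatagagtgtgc
Hmgcs1 peak, chr13:119699842-119699942, + strand: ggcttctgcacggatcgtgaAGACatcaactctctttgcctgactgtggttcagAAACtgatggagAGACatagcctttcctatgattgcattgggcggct
The first 5 bases of the Idi1 window, and 46 and 50 bases of those of Cyp51, are intronic, and the other 2 windows are all coding.

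The Idi1 peak (chr13:8890236-8890414) lay in the last exon, exon 5, with its highest point at -270 bases from the stop codon. It was called in all 6 unirradiated IP libraries, with a fold enrichment of 2.39 to 3.23 in WT Ctrl and 2.82 to 3.30 in cKO Ctrl, and in 0 of the 6 irradiated ones. Of the 18 member places with a consensus peak in both unirradiated groups, it was the 1 place without any irradiated peak. Over the genome, 230 of 9517 consensus peaks shared by the unirradiated groups (2.42%) had no peak in any irradiated library. The libraries held 17408 to 17608 peaks in WT Ctrl and 14870 to 17442 in WT IR, which overlap, and 15503 to 16263 in cKO Ctrl against 13470 to 14041 in cKO IR. The absence of a called peak does not show that the site was unmodified, and the fold values of the lists were not tested between groups.

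Peaks at other places are given by their deposited fold and by group label. The genotype labels of the irradiated IP libraries are in doubt, because their Lyz2 levels go against them. Cyp51 peak 1 in exon 3 (chr5:4101248-4101470) reached a fold of 14.1 in the libraries labelled WT IR, with 6.41 as the lowest of the 3. In those labelled cKO IR it stood at 3.46 to 6.57. Its fold was 5.28 and 5.81 in the 2 WT Ctrl libraries with a peak and 3.79 to 4.85 in cKO Ctrl. A change of this peak within 1 genotype can therefore not be read from these values. Cyp51 peak 4 in exon 7 was called in all 12 libraries at a fold of 2.43 to 3.53. The long peak over the last Cyp51 exon (chr5:4081567-4083327, peak 7) was also called in all 12 libraries, at 3.10 to 5.05. Fdft1 peak 3 in exon 7 (chr14:63156626-63156815) was called in 7 libraries, at 7.50 to 10.5 where it was present and in 0 of the 3 libraries labelled cKO IR. The second Insig1 peak (chr5:28078158-28078504) was called in all 6 unirradiated libraries at a fold of 1.55 to 4.80 and in 1 irradiated library at 4.48. The Hmgcs1 peak in exon 3 was called in 6 libraries at a fold of 1.33 to 1.90, the lowest among the members, whereas the transcript as a whole was depleted in IP. Fdps peak 4 in exon 11 was called in all 12 libraries at a fold of 3.74 to 7.68 with a −log10 q of up to 128, although Fdps had at most 382 counts in an IP library.

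**Figure D4:**
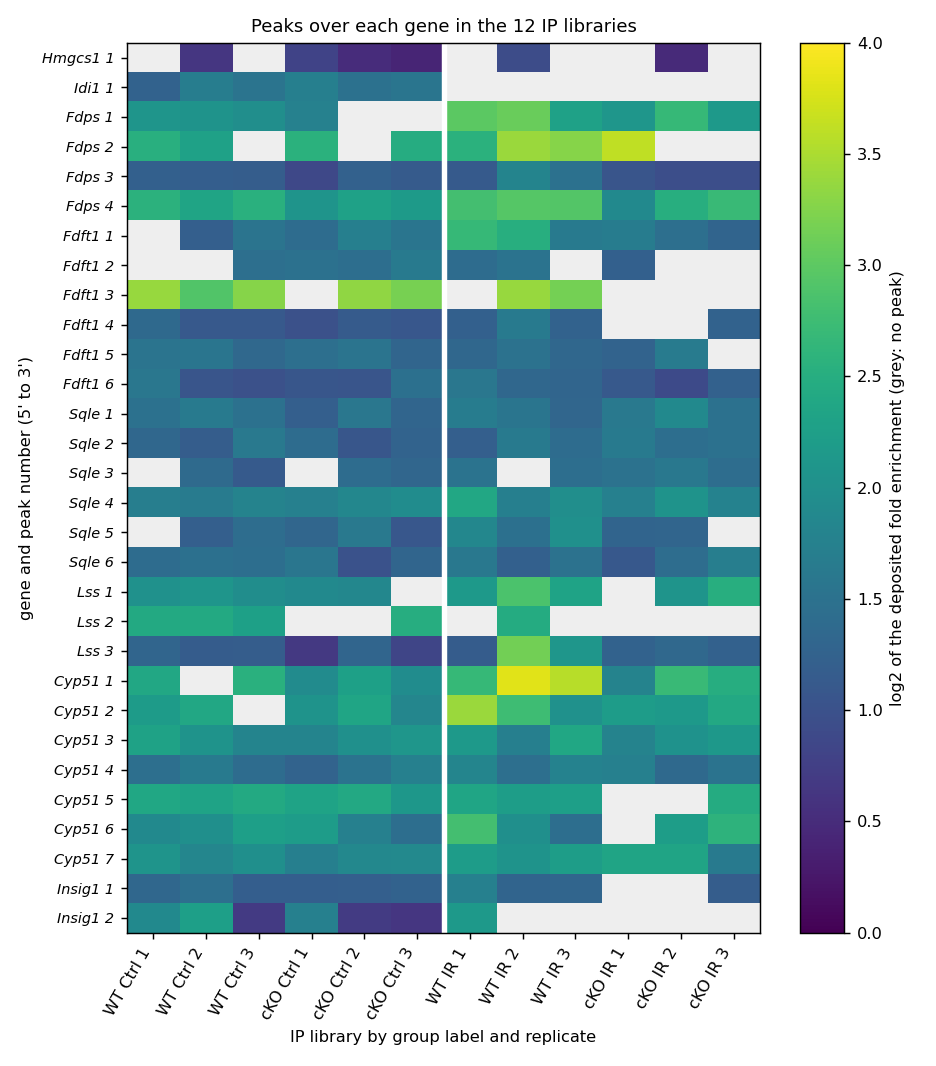
Peaks over the 8 genes in the 12 IP libraries (x axis, group by label and replicate; y axis, gene and peak number from 5' to 3'). Colour gives the log2 of the deposited fold enrichment and grey means that no peak was called. The row of Idi1 is filled in the 6 unirradiated libraries and grey in the 6 irradiated ones.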

How the data were processed

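MeRIP-seq compared 12 Input and 12 m6A IP libraries, grouped by the labels alone. As the methods state, reads were trimmed (Trimmomatic 0.39) and mapped strand-specifically by HISAT against mm10, the GRCm38 build, with GENCODE vM19 genes. The authors deposited raw HTSeq counts per gene, 1 file per library. The authors called MACS2 peaks per library and strand, and the deposited lists give the fold enrichment as a ratio over a control, a whole-number score, and −log10 p-values and −log10 q-values. Symbols, exons and positions came from GENCODE vM21 of GRCm38, matched by Ensembl identifier (54409 of 54446). HTSeq lines that name no gene (no feature in 2.97 to 6.80% of reads, ambiguous in 2.27 to 2.68%) were left out.

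Input changes were tested with the two-sided quasi-likelihood test of edgeR 4.0.16 (R 4.3.3) with TMM scaling on genes reaching 10 counts in 3 or more libraries, 12 Inputs in one fit, and Benjamini-Hochberg adjustment over all genes at 0.05. IP over Input was tested in one fit of all 24 libraries. CPM of the members used TMM scaling over the 12 Inputs for Input levels and over all 24 libraries for IP levels, so the 2 scales are not compared, and CPM of markers and label checks used library totals without TMM. The study used DESeq2, which served as an alternative (1.42.0). On simulated counts the edgeR step was tested before use. The members and lists were chosen with earlier results of these data known. The text names all 8 members, Ythdf2 and Lyz2, at most 3 called genes with the largest change per other list and comparison, and the 5 genes most like the members. Some genes that this rule names are not reported here. Same-numbered Inputs of different groups did not deviate together (18 pairs, correlation -0.043 to 0.018), so the numbers were not taken as pairs. Whether an IP library deviates with the same-numbered Input of its group was not tested, and the IP over Input fit did not pair them. No batch or date was given in the labels.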

Additional observations from a re-analysis of the deposited data

Results flagged for a closer look

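The irradiation change in Input differed between the genotype labels for 4 of the 8 genes, by the interaction term of the edgeR fit of the 12 Inputs. The log2 change in cKO minus that in WT was -0.22 for Sqle, -0.27 for Lss, 0.25 for Idi1 and -0.27 for Hmgcs1. In each case the change had the same sign in both genotypes and was larger in cKO, although the WT change of Hmgcs1 did not pass the threshold. Beside them, the median log2 change after irradiation was -1.97 in WT and -1.08 in cKO over the 8 neutrophil markers, and -1.20 and -0.84 over the 12 cell cycle genes. The part of these shifts in the 4 differences was not tested.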

How the results depend on the processing

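The irradiation counts in WT and cKO Inputs stayed within 1.5 times under every alternative run: other size factors, count filters, DESeq2, the replicate number as a block, fits of only the libraries compared, and fits without 1 library. Between unirradiated genotypes, 2 members were called in place of 1 without a count filter or with only the 6 libraries compared, Cyp51 being added. Between irradiated genotypes, 3 were called in place of 5 with only those 6 libraries. There Fdft1 was also lost with RLE size factors (edgeR adjusted p = 0.052) and with a minimum of 50 counts (0.057), which added Lss (0.041), and Sqle was lost without a count filter (0.066), as was the Lss difference in response (0.090). With the replicate number as a block, 2 differences in the irradiation response were called in place of 4, Sqle (edgeR adjusted p = 0.055) and Lss (0.054) being lost, and Sqle was also lost between the irradiated genotypes (0.054). Same-numbered Inputs of different groups did not deviate together, and these values were close to the threshold. Leaving out 1 library gave 0 to 1 calls between unirradiated genotypes, 3 to 6 between irradiated ones, 1 to 5 for the difference in response, and 1 to 2 for the difference in IP over Input between unirradiated genotypes. A peak fold of at least 4 left 4 members with a consensus peak in WT Ctrl and 3 in WT IR, and 2 in either cKO group. The cause of these shifts was not tested.

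Signs turned for values near 0 that were not called. IP over Input of Idi1 in WT Ctrl was -0.054 with RLE size factors, -0.030 with a minimum of 50 counts, -0.054 by DESeq2 and -0.026 with the unirradiated groups alone, and -0.041 to 0.032 without 1 library. That of Insig1 in cKO IR was -0.00080, -0.017 and -0.00081 under the first 3 of these, and -0.040 to 0.050 without 1 library. Without 1 library the range was -0.18 to 0.0036 for Hmgcs1 after irradiation in WT, -0.085 to 0.021 for Fdps between unirradiated genotypes, -0.010 to 0.11 for Cyp51 between irradiated genotypes and -0.026 to 0.16 for the Insig1 difference in response. For IP over Input it was -0.029 to 0.14 for Fdps between unirradiated genotypes and -0.069 to 0.023 for Insig1 averaged over genotypes. Idi1 in cKO Ctrl, not called here, was called lower in IP under 4 of 5 alternatives: DESeq2 (-0.13, adjusted p = 0.011), RLE size factors (0.014), a minimum of 50 counts (0.024) and the unirradiated groups alone (0.0091). The averaged contrast and the interest in WT IR replicate 1 were chosen after seeing the data.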

Other observations

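Over all genes tested, irradiation lowered 17.0% and raised 14.7% in WT Inputs, and lowered 23.8% and raised 21.8% in cKO Inputs. Of the 10 fatty acid synthesis genes, 7 fell and 2 rose in WT Inputs, and 8 fell and 2 rose in cKO Inputs, with a median log2 change of -0.18 and -0.67. Fasn, the fatty acid synthase, fell by 0.43 ± 0.042 in WT (edgeR adjusted p = 7.2e-08) and by 1.01 ± 0.042 in cKO (edgeR adjusted p = 3.5e-13), a difference of -0.58 ± 0.059 between the genotypes (edgeR adjusted p = 4.6e-07). Of the 10 genes of efflux and storage, 2 fell and 2 rose in WT, and 4 fell and 2 rose in cKO, shares that lie nearer to those of all genes. Abca1, the cholesterol exporter, rose by 0.46 ± 0.028 in WT (edgeR adjusted p = 7.3e-11) and fell by 0.31 ± 0.028 in cKO (edgeR adjusted p = 1.1e-08), a difference of -0.77 ± 0.039 (edgeR adjusted p = 5.7e-11). Of the 8 genes that lead isoprenoids to other products, 2 fell and 0 rose in WT, and 1 fell and 3 rose in cKO.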
